A study of Mus musculus with 6 samples.

Results

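The genes described here encode the non-collagen part of the extracellular matrix and the enzymes that finish and crosslink collagen: matrix glycoproteins, proteoglycans and crosslinking enzymes. The list holds 58 genes, grouped by function. Of these, 55 had a probe set that the platform annotation ties to 1 gene symbol, out of 19938 genes measured that way, and Fbn1, Efemp2 and Loxl2 were not analysed here. Expression was measured in cultured bone marrow stromal cells (BMSCs), the adherent marrow cells from which osteoblasts and adipocytes arise. The KO group holds 3 cultures from C57BL/6 mice that lack the microRNA gene miR-188 by their genotype label, and the WT group holds 3 cultures from wild-type C57BL/6 mice. All mice were 6 months old, and both genotypes received the same adipogenic medium, in which dexamethasone (1 µM), insulin (5 µg/ml) and the phosphodiesterase inhibitor IBMX (0.5 mM) were added to α-MEM with 10% FCS. Replicates are labelled biological, but it is not stated that they are different mice, and p-values cover the spread between cultures only. How long the induction lasted, how much was deleted and whether arrays were hybridised in batches is not stated in the labels.

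The matrix around stromal cells is built in layers. Fibrillar collagen is hydroxylated, folded and trimmed by dedicated enzymes, and lysyl oxidases then crosslink it outside the cell. Small leucine-rich proteoglycans bind collagen fibrils and set their thickness, fibrillins and elastin form elastic fibres, and laminins with nidogens and perlecan form basement membranes. Matricellular proteins such as thrombospondins, tenascins and periostin sit in this scaffold and modulate adhesion rather than carry load. Preadipocytes are known to replace a fibronectin-rich stroma by a laminin-rich basement membrane as they mature.

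The microRNA named in the genotype gives rise to a mature strand from each arm of its hairpin. Both are shown because they identify what the KO label refers to. They are written 5′ to 3′ from RefSeq, build GRCm38.p6, on the minus strand of chromosome X, with the seed (bases 2 to 8) in capitals.
mmu-miR-188-5p, chrX:7248031-7248051: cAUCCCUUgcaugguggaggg
mmu-miR-188-3p, chrX:7247992-7248012: cUCCCACAugcaggguuugca
The array's Mir188 probe set read 7.22, 7.22 and 7.13 in KO and 7.22, 7.27 and 7.38 in WT on the log2 scale. The groups touched at one value, and the difference of -0.10 did not pass the test (adjusted p = 0.348). The labels do not say whether the deletion covers this probe set, so it does not test the genotype.

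Each gene has a log2 level on each array, and differences are KO minus WT on that scale. A gene was called when limma's moderated test, adjusted over all 19938 genes by the Benjamini-Hochberg method, gave an adjusted p under 0.05. Levels of different genes are not set against each other, because probe sets differ in brightness. A level under 6.83 is called below background: 95% of 1027 olfactory receptor genes, which stromal cells should not use, had a mean level below that. Over all probe sets, correlations between arrays were 0.991 to 0.995 across genotypes and 0.994 to 0.997 within a genotype.

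Of the 55 matrix genes, 16 fell in KO, 4 rose and 35 did not pass the test, which makes 36.4% called, against 7.31% of all genes. In each direction separately, 29.1% of the matrix genes fell against 3.97% of all genes, and 7.27% rose against 3.34% of all genes. All 20 called matrix genes were among the 46 above background, and of the 13090 genes above it 10.7% were called, 5.91% as lower and 4.75% as higher. The median difference was -0.077 over the 55 genes and 0.0046 over all genes. Of the 55 estimates, 38 (69.1%) were below 0, against 47.6% of all genes. At an unadjusted p under 0.05, 25 of the 55 were lower and 7 higher, against 11.2% and 9.43% of all genes. Fold sizes of the called genes ran only from 1.10, for the procollagen enhancer gene Pcolce, to 1.34, for tenascin C. In 34 of the 55 genes (61.8%) the 3 KO and 3 WT values did not overlap, 27 of them with KO lower and 7 with KO higher, against 24.9% of all genes in either direction, 13.5% with KO lower and 11.4% with KO higher.

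The calls depended on which arrays were used. Without WT replicate 3 none of the 55 genes passed limma's adjusted threshold, against 0.948% of all genes, while 22 were lower and 6 higher at an unadjusted p under 0.05, against 8.12% and 7.12% of all genes. Without WT replicate 1 there were 4 falls and 1 rise (2.48% of all genes called), and without KO replicate 3 there were 6 and 2 (3.07%). Falls and rises numbered 9 and 2 without KO replicate 2 (4.15%), 11 and 1 without KO replicate 1 (4.13%), and 11 and 2 without WT replicate 2 (4.67%). With all arrays, other processing and no replicate block there were 11 falls and 7 rises after quantile normalization again (7.53%), 12 and 6 after cyclic loess (7.65%), and 16 and 4 with the mean of all probe sets of a gene (7.21%). The counts were 19 and 5 of 46 when only genes above background were tested (16.7%), 23 and 6 with array weights (17.1%), and 20 and 7 with a trended and robust variance (11.4%). With a replicate block by number they were 0 and 0 (0.261%). The differences of all 20 called genes kept their direction under all 13 alternative settings. Only quantile normalization again and cyclic loess could have reversed one. The other settings use the same values, and the groups of these 20 genes did not overlap. In a mixed culture, fewer cells of a type and less RNA per cell cannot be told apart.

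**Figure D1:**
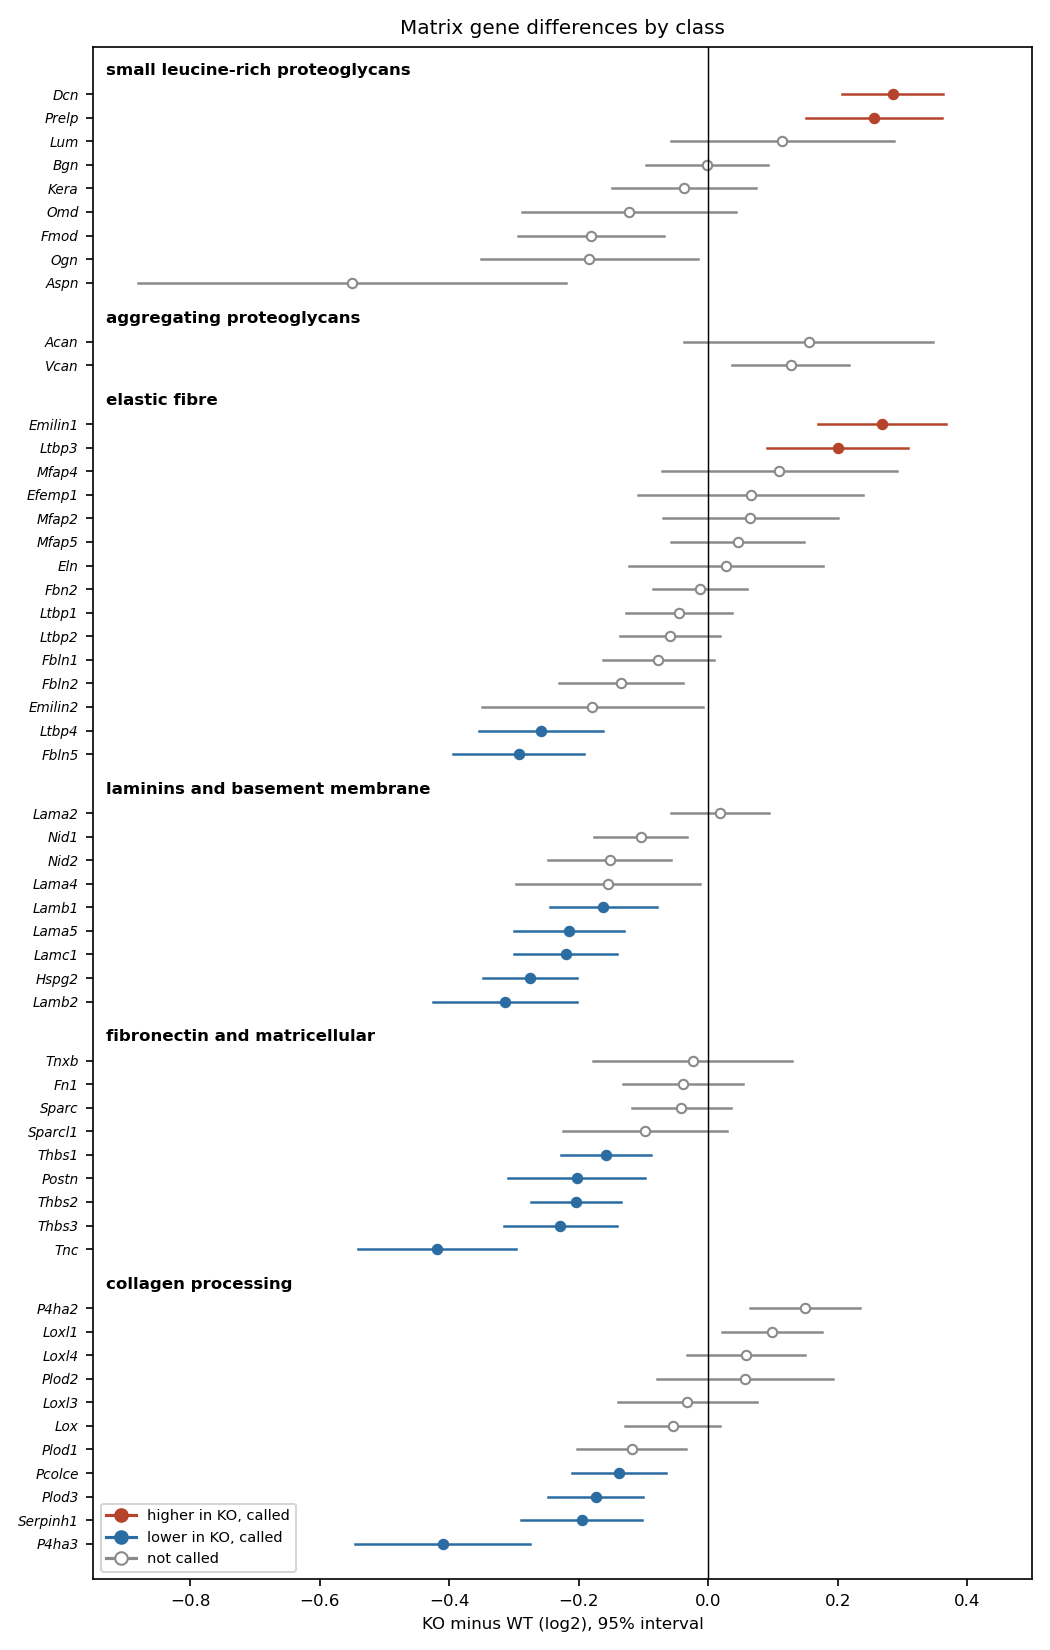
Difference in log2 level, KO minus WT, for each of the 55 measured matrix genes, sorted within 6 classes, with points for the estimate and bars for the 95% interval from limma; filled red points are genes called higher in KO, filled blue points genes called lower, and open grey points genes not called. The laminin and basement membrane class and the fibronectin and matricellular class hold 5 blue points each and no red one, while the small leucine-rich proteoglycans hold 2 red points and no blue one.

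Laminin chains and perlecan were among the genes that fell. Among 9 laminin and basement membrane genes there were 5 falls, no rise and 4 that did not pass, with a median of -0.16. These falls made up 55.6% of the class, against 3.97% of all genes. In 8 of the 9 the 3 KO values lay below the 3 WT values, against 13.5% of all genes. At an unadjusted p under 0.05, 8 were lower and 0 higher, against 11.2% and 9.43% of all genes. Lamb2, the laminin β2 chain, had levels of 9.67, 9.54 and 9.62 in KO and 9.97, 9.94 and 9.86 in WT. It fell by 0.31 (SE 0.05, adjusted p = 0.0127). Every KO array was lower than every WT array for this chain. Lamc1 encodes the γ1 chain that most laminin trimers share. It read 11.33, 11.37 and 11.33 in KO and 11.59, 11.53 and 11.57 in WT, and fell by 0.22 (SE 0.03, adjusted p = 0.0137). Lama5, the α5 chain of mature basement membranes, read 9.76, 9.68 and 9.69 in KO and 9.92, 9.92 and 9.93 in WT, a fall of 0.22 (SE 0.04, adjusted p = 0.0175). Lamb1, the β1 chain, was at 10.34, 10.30 and 10.31 in KO and at 10.51, 10.43 and 10.50 in WT, and fell by 0.16 (SE 0.03, adjusted p = 0.0404). The chains that fell thus included α, β and γ subunits, and their groups did not overlap. All 20 called matrix genes had such groups, so this is not separate support for the calls.

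Hspg2 encodes perlecan, the heparan sulphate proteoglycan that links basement membrane networks. Its levels were 10.89, 10.86 and 10.85 in KO and 11.14 on each of the 3 WT arrays, and it fell by 0.28 (SE 0.03, adjusted p = 0.00595). The 3 equal WT values are a tie, which the summary of probes in these data can give, and they make the within-group spread look smaller than it may be. The nidogens, which bridge laminin to collagen IV, did not pass: Nid1 differed by -0.10 (95% interval -0.18 to -0.03, adjusted p = 0.0989) and Nid2 by -0.15 (95% interval -0.25 to -0.06, adjusted p = 0.0717). In both nidogen genes every KO value was below every WT value. Lama4, the α4 chain of adipocyte and vessel basement membranes, differed by -0.16 (95% interval -0.30 to -0.01, adjusted p = 0.201), and Lama2, the α2 chain known from muscle, lay below background. Laminin chains outside the 58 genes were not called either: Lama1 differed by -0.06, Lama3 by 0.01, Lamb3 by -0.01 and Lamc3 by -0.07. The collagen IV genes Col4a1 and Col4a2, the network collagen of basement membranes, differed by -0.13 (adjusted p = 0.140) and by -0.15 (adjusted p = 0.0626). With only genes above background tested, Nid1 (adjusted p = 0.0491) and Nid2 (adjusted p = 0.0340) passed as lower in KO. When 1 array was left out, the call of Hspg2 was lost by a narrow margin without WT replicate 3. Lamb2 and Lamc1 missed it without KO replicate 3, WT replicate 1 or WT replicate 3. Lama5 passed only without KO replicate 1, and Lamb1 only without WT replicate 2.

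Endothelial cells also make basement membrane, so their markers were read beside these genes. Of 8 endothelial markers, 5 lay above background and only Kdr, a VEGF receptor, fell (-0.29, adjusted p = 0.0425, lost in every fit without 1 array other than that without WT replicate 2). Pecam1, Tek and Emcn were below background. The summed linear level of the 8 markers was 885 to 914 in KO and 899 to 934 in WT, and their part in the laminin result was not tested.

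Among fibronectin and matricellular genes the estimates of all 9 were below 0, against 47.6% of all genes. The median was -0.16, with no rise and 5 falls, or 55.6% of the class against 3.97% of all genes. At an unadjusted p under 0.05 the counts were 5 lower and 0 higher, against 11.2% and 9.43% of all genes. Tnc encodes tenascin C, a protein of remodelling and injured stroma, and had the largest fold of the called matrix genes. Its levels were 9.13, 9.26 and 9.21 in KO and 9.68, 9.55 and 9.64 in WT, and it fell by 0.42 (SE 0.05, adjusted p = 0.00736). The highest KO value stayed well below the lowest WT value. Of the thrombospondins, secreted glycoproteins that bind cells and matrix, Thbs1, Thbs2 and Thbs3 fell. Thbs4 lay below background and differed by 0.08 (adjusted p = 0.548). Comp, also called thrombospondin-5, differed by 0.03 (adjusted p = 0.766). Thbs1 read 12.91, 12.90 and 12.91 in KO and 13.05, 13.07 and 13.07 in WT, a fall of 0.16 (SE 0.03, adjusted p = 0.0247). Thbs2 read 13.01, 13.00 and 12.99 in KO and 13.20 on all 3 WT arrays, again a tie, and fell by 0.20 (SE 0.03, adjusted p = 0.0114). Thbs3 read 9.39, 9.30 and 9.36 in KO and 9.59, 9.55 and 9.59 in WT, and fell by 0.23 (SE 0.04, adjusted p = 0.0159). In each of these 3 genes the groups did not overlap. Postn encodes periostin, a matricellular protein of periosteum and other collagen-rich tissue. It had 11.81, 11.89 and 11.87 in KO and 12.12, 11.99 and 12.06 in WT, and fell by 0.20 (SE 0.04, adjusted p = 0.0433).

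The calls in this class differed in how they stood when 1 array was left out. Tnc and Thbs2 missed the threshold only without WT replicate 3 (adjusted p = 0.0570 and 0.0705). Thbs3 missed it without KO replicate 3, WT replicate 1 or WT replicate 3, Postn passed only without WT replicate 2, and Thbs1 passed in none of the 6 such fits (adjusted p = 0.0542 to 0.115). Fibronectin itself, Fn1, was at 13.70, 13.80 and 13.73 in KO and at 13.80, 13.77 and 13.78 in WT. Its groups overlapped, with a difference of -0.04 (95% interval -0.13 to 0.05, adjusted p = 0.649). Sparc, the collagen-binding protein osteonectin, differed by -0.04 (95% interval -0.12 to 0.04, adjusted p = 0.549), and its relative Sparcl1 by -0.10 (adjusted p = 0.379). Tnxb, the tenascin of loose connective tissue, differed by -0.02 (95% interval -0.18 to 0.13).

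**Figure D2:**
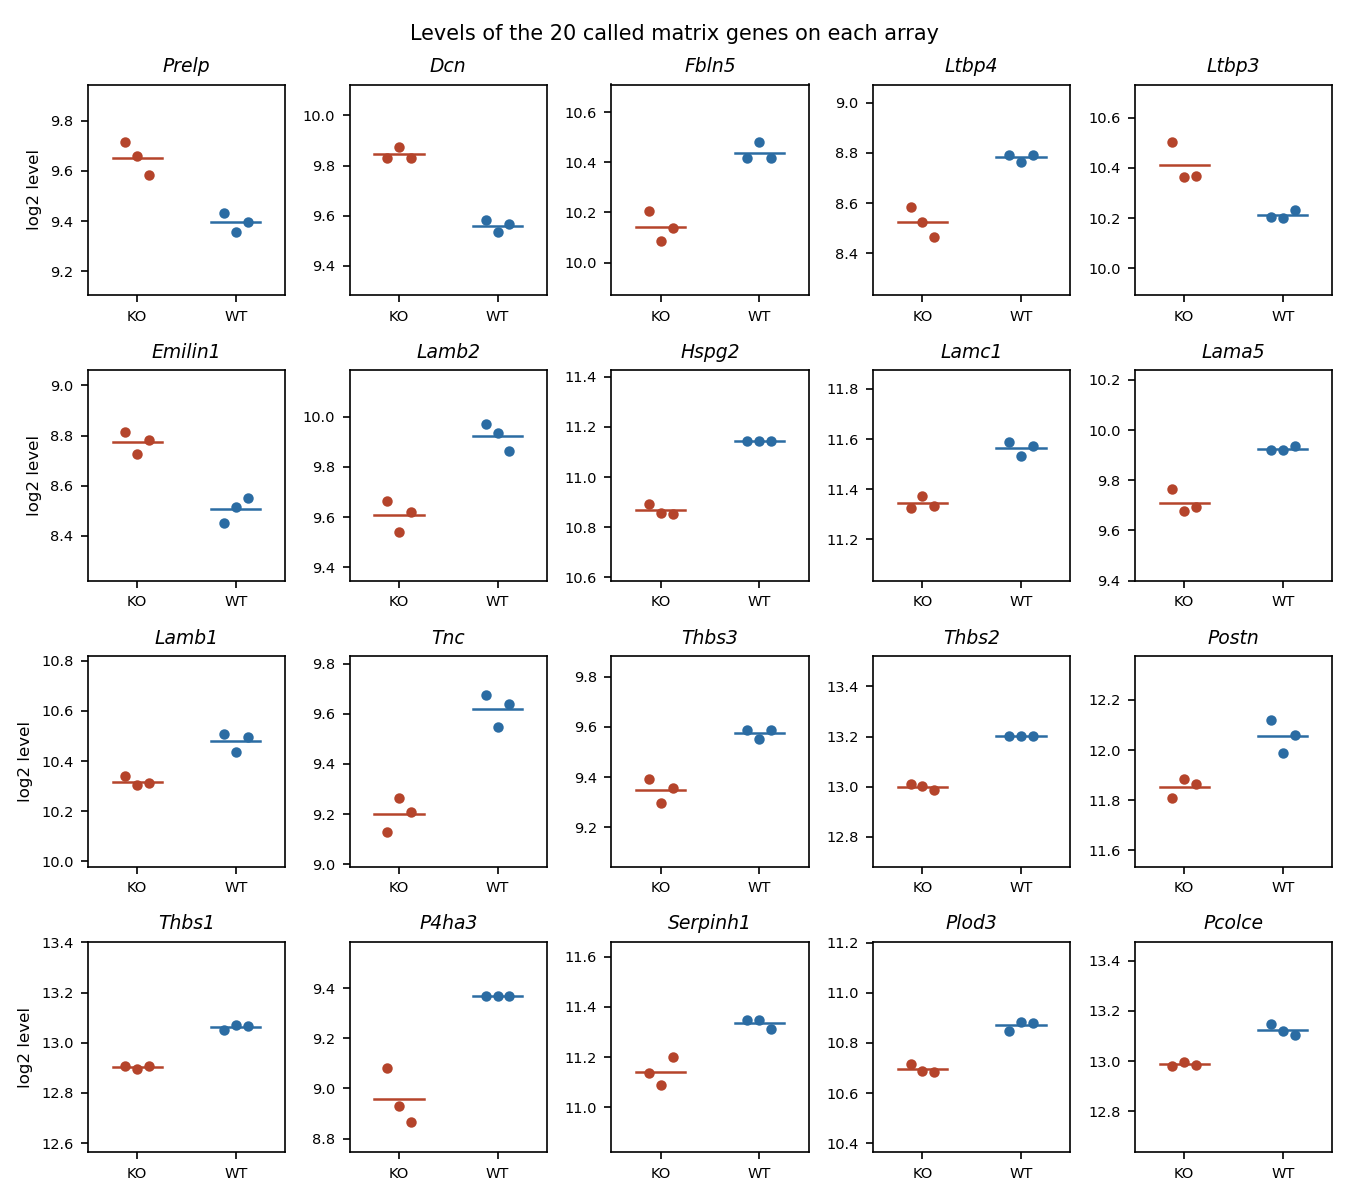
Log2 level on each of the 6 arrays for the 20 called matrix genes, 1 panel per gene, with 3 KO arrays (red, left) and 3 WT arrays (blue, right), short lines for the group means, and the same vertical span in every panel. No panel shows an overlap between the groups, and Hspg2, Thbs2 and P4ha3 each show 3 equal WT values.

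On the values as deposited, small leucine-rich proteoglycans were the class with rises and no falls: 2 of 9 rose and 7 were not called. The called share was 22.2%, against 7.31% of all genes, and the median was -0.038. At an unadjusted p under 0.05, 3 were lower and 2 higher, against 11.2% and 9.43% of all genes. Dcn encodes decorin, which coats collagen fibrils and binds TGF-β. Its levels were 9.83, 9.87 and 9.83 in KO and 9.58, 9.53 and 9.57 in WT, and it rose by 0.28 (SE 0.03, adjusted p = 0.00663). Prelp, an anchor between basement membranes and collagen, read 9.71, 9.66 and 9.58 in KO and 9.43, 9.36 and 9.40 in WT. It rose by 0.26 (SE 0.04, adjusted p = 0.0198). For both genes all KO arrays were above all WT arrays. For Dcn the call was lost only without WT replicate 3 (adjusted p = 0.0524), while Prelp passed only without KO replicate 3.

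Biglycan, Bgn, the closest relative of decorin and the only matrix gene here on the X chromosome, was at 13.66, 13.77 and 13.70 in KO and at 13.72, 13.69 and 13.72 in WT. Its groups overlapped and the difference was -0.0020 (95% interval -0.10 to 0.09, adjusted p = 0.987). Several other members had estimates below 0. Asporin, Aspn, an inhibitor of TGF-β in cartilage, had the largest difference of all 55 genes. It read 5.44, 6.01 and 5.67 in KO and 6.30, 6.14 and 6.33 in WT, a difference of -0.55 (95% interval -0.88 to -0.22, adjusted p = 0.0662) at levels below background. Its neighbours in the family Ogn and Omd, known as osteoglycin and osteomodulin, differed by -0.18 (adjusted p = 0.200) and by -0.12 (adjusted p = 0.394), each with overlapping groups. All 3 of these genes lie on chromosome 13. Fmod, fibromodulin, which competes with lumican on collagen, read 7.17, 7.20 and 7.20 in KO and 7.28, 7.40 and 7.44 in WT, with a difference of -0.18 (95% interval -0.29 to -0.07, adjusted p = 0.0717). With array weights Fmod, Ogn and Aspn passed as lower in KO (adjusted p = 0.0109, 0.0288 and 0.0096). Fmod also passed as lower with cyclic loess and with only genes above background (adjusted p = 0.0384 and 0.0340). Aspn did so with a trended and robust variance (adjusted p = 0.0321). Lumican, Lum, and keratocan, Kera, were below background on this array.

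Elastic fibre genes went both ways, with 2 rises, 2 falls and 11 of 15 measured genes not past the test, and a median of -0.013. The called share was 26.7%, against 7.31% of all genes. At an unadjusted p under 0.05, 4 were lower and 2 higher, against 11.2% and 9.43% of all genes. Fbln5 encodes fibulin 5, which brings elastin and lysyl oxidases onto microfibrils. It had 10.21, 10.09 and 10.14 in KO and 10.42, 10.48 and 10.42 in WT, and fell by 0.29 (SE 0.04, adjusted p = 0.0119). Ltbp4, a latent TGF-β binding protein that works with fibulin 5 in elastic fibre assembly, read 8.58, 8.52 and 8.46 in KO and 8.79, 8.76 and 8.79 in WT, a fall of 0.26 (SE 0.04, adjusted p = 0.0145). Both genes were lower on every KO array than on any WT array. Emilin1, an elastin interface glycoprotein that restrains TGF-β processing, read 8.81, 8.72 and 8.78 in KO and 8.45, 8.51 and 8.55 in WT. It rose by 0.27 (SE 0.04, adjusted p = 0.0144). Ltbp3, a latent TGF-β carrier known from bone, read 10.50, 10.37 and 10.37 in KO and 10.21, 10.20 and 10.23 in WT, and rose by 0.20 (SE 0.05, adjusted p = 0.0492). In these rising genes the KO arrays lay above the WT arrays throughout.

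The latent TGF-β binding proteins thus held a rise and a fall, while Ltbp1 and Ltbp2 differed by -0.05 (95% interval -0.13 to 0.04) and by -0.06 (95% interval -0.14 to 0.02). Fbln5 missed the threshold without KO replicate 3, WT replicate 1 or WT replicate 3, and Ltbp4 without KO replicate 2, WT replicate 1 or WT replicate 3. Emilin1 passed only without KO replicate 2 or WT replicate 2, and Ltbp3 in none of the 6 fits without 1 array (adjusted p = 0.0626 to 0.156). Elastin, Eln, was at 7.69, 7.54 and 7.59 in KO and at 7.47, 7.66 and 7.61 in WT. Its groups overlapped and it differed by 0.03 (95% interval -0.12 to 0.18, adjusted p = 0.861). Fbln1 and Fbln2, fibulins that bind fibronectin and basement membranes, differed by -0.08 (adjusted p = 0.298) and by -0.13 (adjusted p = 0.106). Emilin2, the relative of Emilin1, differed by -0.18 (95% interval -0.35 to -0.01, adjusted p = 0.218). Among the microfibril-associated genes Mfap2 differed by 0.06 (adjusted p = 0.594), and Mfap4 and Mfap5 were below background, as were Fbn2 and Efemp1.

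Collagen processing genes fell or did not pass on the values as deposited: of 11 measured, 4 fell, none rose and 7 were not called. The falls made up 36.4% of the class, against 3.97% of all genes. The class median was -0.055, and it was -0.025 with quantile normalization again and -0.014 with cyclic loess. At an unadjusted p under 0.05, 5 were lower and 2 higher, against 11.2% and 9.43% of all genes. P4ha3 encodes an α subunit of prolyl 4-hydroxylase, the enzyme that stabilises the collagen triple helix. It read 9.08, 8.93 and 8.87 in KO and 9.37 on all 3 WT arrays, a tie, and fell by 0.41 (SE 0.06, adjusted p = 0.0102). Its sister subunit P4ha2 pointed the other way without passing on the values as deposited. It was at 10.18, 10.12 and 10.09 in KO and at 9.97, 10.00 and 9.97 in WT, a difference of 0.15 (95% interval 0.06 to 0.23, adjusted p = 0.0543). P4ha2 passed as higher in KO after quantile normalization again and cyclic loess (adjusted p = 0.0393 and 0.0363). It also passed with only genes above background, array weights, and a trended and robust variance (adjusted p = 0.0246, 0.0156 and 0.0170). In none of the fits without 1 array did it pass (adjusted p = 0.0800 to 0.199). The groups of both subunit genes did not overlap, and the contrast between them was not tested.

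Serpinh1 encodes HSP47, the collagen chaperone of the endoplasmic reticulum. Its levels were 11.14, 11.09 and 11.20 in KO and 11.35, 11.35 and 11.31 in WT, and it fell by 0.20 (SE 0.04, adjusted p = 0.0336). Plod3, a lysyl hydroxylase that also glycosylates collagen, read 10.72, 10.69 and 10.69 in KO and 10.85, 10.88 and 10.88 in WT, a fall of 0.17 (SE 0.03, adjusted p = 0.0218). Pcolce, which speeds removal of the procollagen C-propeptide, read 12.98, 13.00 and 12.98 in KO and 13.15, 13.12 and 13.11 in WT, and fell by 0.14 (SE 0.03, adjusted p = 0.0444). All 3 genes had separate groups. P4ha3 missed the threshold without WT replicate 1 or WT replicate 3, Serpinh1 passed only without KO replicate 3, Plod3 only without KO replicate 1, and Pcolce in none of these fits (adjusted p = 0.0843 to 0.135). The calls of Serpinh1, Plod3 and Pcolce were also lost after quantile normalization again (adjusted p = 0.0984, 0.0986 and 0.0686) and after cyclic loess (adjusted p = 0.0646, 0.0669 and 0.124), as were those of Lamb1 and Thbs1.

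None of the lysyl oxidase genes measured passed the test on the values as deposited. Lox, the founding crosslinking enzyme, read 12.48, 12.48 and 12.44 in KO and 12.53, 12.51 and 12.53 in WT, a difference of -0.06 (95% interval -0.13 to 0.02, adjusted p = 0.386). Loxl1, which acts on elastin, read 11.36, 11.30 and 11.33 in KO and 11.26, 11.22 and 11.22 in WT, a difference of 0.10 (95% interval 0.02 to 0.18, adjusted p = 0.141). In both genes the groups did not overlap although the differences were small. Loxl1 passed as higher in KO with quantile normalization again (adjusted p = 0.0443), with array weights (adjusted p = 0.0309) and with a trended and robust variance (adjusted p = 0.0335). Loxl3 differed by -0.03 and Loxl4 by 0.06, and the other probe set of Loxl4 differed by 0.00065. The lysyl hydroxylase genes Plod1 and Plod2 differed by -0.12 (95% interval -0.20 to -0.03, adjusted p = 0.108) and by 0.06 (95% interval -0.08 to 0.19). The aggregating proteoglycans completed the list. Vcan, versican of provisional matrix, read 11.66, 11.61 and 11.60 in KO and 11.53, 11.45 and 11.52 in WT, with a difference of 0.13 (95% interval 0.04 to 0.22, adjusted p = 0.107). With quantile normalization again and with cyclic loess Vcan (adjusted p = 0.0304 and 0.0376) and P4ha2 (adjusted p = 0.0393 and 0.0363) passed as higher in KO. Acan, aggrecan of cartilage, lay below background.

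The bases before the gene start were read for genes that moved together. RefSeq's promoter table for GRCm38.p6 held 39 of the 55 genes, and Dcn and Lamc1 were not among them. The 250 bases before the start are shown for the other 4 basement membrane genes that fell and for 2 genes that rose, Emilin1 and Prelp. Sequences run 5′ to 3′ on the gene's strand, and capitals mark matches, on either strand, to the GC box GGGCGG and the CCAAT box CCAAT.
Hspg2, chr4:137468553-137468802, plus strand: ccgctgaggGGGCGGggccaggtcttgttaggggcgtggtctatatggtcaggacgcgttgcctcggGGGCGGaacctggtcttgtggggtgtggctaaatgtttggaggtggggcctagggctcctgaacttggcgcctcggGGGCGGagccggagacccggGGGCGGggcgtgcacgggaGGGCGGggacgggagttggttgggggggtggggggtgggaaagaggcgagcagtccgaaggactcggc
Lama5, chr2:180225860-180226109, minus strand: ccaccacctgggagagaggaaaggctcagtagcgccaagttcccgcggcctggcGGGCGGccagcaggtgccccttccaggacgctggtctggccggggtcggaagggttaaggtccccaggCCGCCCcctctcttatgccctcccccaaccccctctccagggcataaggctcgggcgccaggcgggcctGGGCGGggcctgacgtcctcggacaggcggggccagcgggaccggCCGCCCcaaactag
Lamb1, chr12:31265043-31265292, plus strand: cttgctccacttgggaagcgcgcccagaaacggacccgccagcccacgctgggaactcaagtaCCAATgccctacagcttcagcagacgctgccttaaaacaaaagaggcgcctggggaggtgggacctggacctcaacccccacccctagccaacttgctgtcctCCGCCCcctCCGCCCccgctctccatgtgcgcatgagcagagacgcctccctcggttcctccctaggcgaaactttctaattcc
Lamb2, chr9:108479612-108479861, plus strand: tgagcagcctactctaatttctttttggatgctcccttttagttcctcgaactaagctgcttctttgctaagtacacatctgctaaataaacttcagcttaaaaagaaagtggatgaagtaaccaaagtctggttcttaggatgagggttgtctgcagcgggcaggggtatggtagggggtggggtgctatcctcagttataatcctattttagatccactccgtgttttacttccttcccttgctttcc
Emilin1, chr5:30913536-30913785, plus strand: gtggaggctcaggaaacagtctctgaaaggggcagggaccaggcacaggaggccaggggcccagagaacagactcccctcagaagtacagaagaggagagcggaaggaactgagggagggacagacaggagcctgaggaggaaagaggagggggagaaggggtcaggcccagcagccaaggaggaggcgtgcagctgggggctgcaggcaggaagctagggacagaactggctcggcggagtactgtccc
Prelp, chr1:133921402-133921651, minus strand: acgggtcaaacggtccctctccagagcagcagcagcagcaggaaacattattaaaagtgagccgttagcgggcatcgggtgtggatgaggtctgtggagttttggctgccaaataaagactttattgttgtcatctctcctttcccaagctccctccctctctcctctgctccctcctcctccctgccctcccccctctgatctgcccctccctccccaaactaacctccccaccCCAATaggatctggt
The GC box stood 5 times before Hspg2, 4 times before Lama5, 2 times before Lamb1 and 0 times before Lamb2. It stood at least once in 13 of the 19 windows of called genes that fell. These 19 windows belong to 14 genes, and the 48 windows of all the matrix genes to 39, because a gene can have several starts. The GC box was in none of the 3 windows of genes that rose, in 26 of the 48 windows of all the matrix genes and in 32.7% of all 32851 windows. The CCAAT box was in 6 of the 19 windows of genes that fell, 1 of the 3 of genes that rose, 14 of the 48 of all the matrix genes and 33.8% of all windows. The TATA box TATAAA was in 4 of the 19 windows of genes that fell, none of the 3 of genes that rose, 7 of the 48 of all the matrix genes and 12.4% of all windows, and in none of the 6 shown. The AP-1 element TGANTCA and the E-box CACGTG were in none of the windows of called genes, each in 2 of the 48 windows, and in 6.75% and 6.02% of all windows. G and C make up 70.0% of the Hspg2 window, 72.4% of that of Lama5, 43.6% of that of Lamb2 and 63.2% of that of Emilin1. The motifs were chosen after the expression values were known, and the counts are descriptions of these letters.

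Matrix genes outside the 58 were read from lists chosen by function. Of 40 other matrix glycoproteins, 2 rose, 3 fell and 35 were not called, the median being 0.020, so 12.5% were called against 7.31% of all genes. Ccn5, a matricellular protein of the CCN family, read 9.71, 9.64 and 9.69 in KO and 9.26, 9.35 and 9.27 in WT. It rose by 0.39 (SE 0.04, adjusted p = 0.00445) and passed in all 6 fits without 1 array. Mfap3, a microfibril-associated gene, rose by 0.21 (adjusted p = 0.0170). Npnt, nephronectin of basement membranes, read 8.36, 8.44 and 8.47 in KO and 8.75, 8.75 and 8.81 in WT, and fell by 0.35 (SE 0.04, adjusted p = 0.00663). Leaving out WT replicate 3 ended that call. Tnn, the tenascin W gene of bone and stroma, fell by 0.34 (adjusted p = 0.0171), as Tnc did. The tenascin genes Tnxb and Tnr were not called, with differences of -0.02 each (adjusted p = 0.882 and 0.825), and Tnr lay below background. Mfap3 and Tnn each missed the threshold in 3 or more of the fits without 1 array.

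Of 28 other proteoglycan core proteins 7.14% were called, against 7.31% of all genes, with 1 rise and 1 fall. Podnl1, a podocan-like leucine-rich proteoglycan, rose by 0.17 (adjusted p = 0.0476), and the glypican Gpc4 fell by 0.15 (adjusted p = 0.0386). Of 35 genes that synthesise glycosaminoglycan chains 5.71% were called, below the 7.31% of all genes. Chst12, a chondroitin sulfotransferase, rose by 0.16 (adjusted p = 0.0385), and Ext2, a heparan sulphate polymerase subunit, fell by 0.17 (adjusted p = 0.0253). These 4 calls held in none of the fits without 1 array. Of 22 further genes of collagen folding and processing 4.55% were called, against 7.31% of all genes, through 1 gene, P3h2, a prolyl 3-hydroxylase that acts on basement membrane collagen. It read 8.43, 8.46 and 8.51 in KO and 8.14, 7.89 and 8.07 in WT, and rose by 0.44 (SE 0.07, adjusted p = 0.0141), a call that held without WT replicate 1 or WT replicate 2 only. None of these 22 genes fell, while 9 were lower and 2 higher at an unadjusted p under 0.05 (11.2% and 9.43% of all genes), and the list's median was -0.076. The collagen genes themselves, 44 with a 1-symbol probe set, had 8 falls, no rise and a median of -0.021, a called share of 18.2% against 7.31% of all genes. At an unadjusted p under 0.05, 14 were lower and 0 higher, against 11.2% and 9.43% of all genes.

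**Figure D3:**
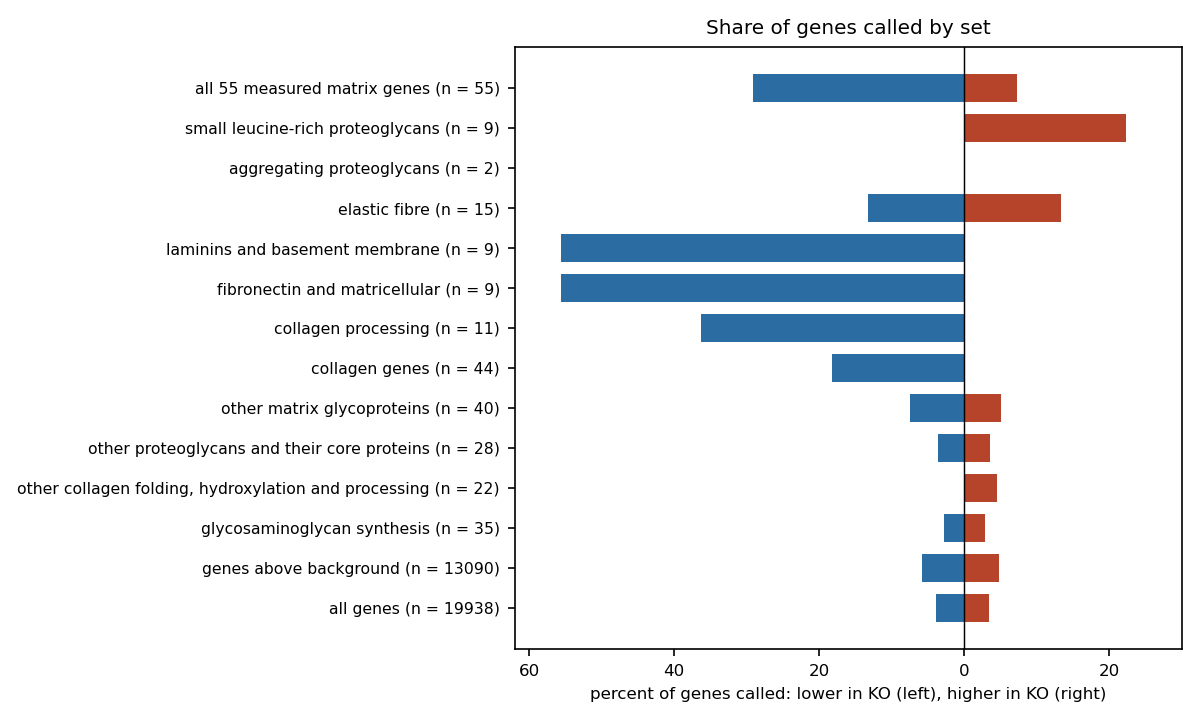
Percent of genes called in each set, with genes lower in KO to the left of 0 in blue and genes higher in KO to the right in red; the number of genes in each set is given in its label, and all genes and genes above background are at the bottom. The bars for laminins and basement membrane and for fibronectin and matricellular genes reach 55.6% on the lower side, against 3.97% for all genes.

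The identity of the cultures was checked with marker lists. Of 11 marrow stromal markers measured, 10 lay above background, among them Pdgfra, Pdgfrb, Cxcl12 and Prrx1, while the leptin receptor gene Lepr, which marks marrow stroma in vivo, was below it. The stromal list did not move one way: Pdgfra and Pdgfrb rose by 0.26 and 0.14, and Nt5e, Cd44 and the integrin β1 gene Itgb1, a subunit of laminin and fibronectin receptors, fell by 0.28, 0.24 and 0.22. The summed level of the stromal markers was 9876 to 10058 in KO and 9952 to 10338 in WT. The 5 calls made up 45.5% of the stromal list, against 7.31% of all genes, and all were lost without WT replicate 3.

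In the other marker lists most genes were not called, and the summed linear levels add probe sets of different brightness. The 9 adipocyte markers summed to 2667 to 2739 in KO and 3318 to 3385 in WT, with Pparg (-1.27) and Fabp4 (-0.33) lower, Lipe (0.19) higher, and Adipoq and Lep below background. The 8 chondrocyte markers summed to 2990 to 3319 in KO and 2552 to 2632 in WT. Of these only Sox9, the cartilage transcription factor, was called. It rose by 0.41, with a mean linear level of 2190 in KO and 1646 in WT, and Matn1, Matn3, Col10a1 and Hapln1 were below background. The 9 macrophage markers summed to 2432 to 2455 in KO and 2675 to 2707 in WT. Of these only Cd68 was called (-0.19), at a mean linear level of 1848 in KO and 2105 in WT, and Adgre1, Csf1r, Ptprc and Lyz2 were below background. The 8 smooth muscle and pericyte markers summed to 9976 to 10235 in KO and 10934 to 10993 in WT. Among them Acta2, at 8538 in KO and 9244 in WT, was not called (adjusted p = 0.0776), and Tagln fell by 0.33. The 7 osteoblast markers, 4 of them above background, summed to 6723 to 7140 in KO and 7396 to 7462 in WT. Alpl was higher by 0.39 and Col1a1 lower by 0.28. Most of the sum was Col1a1, at a mean linear level of 4543 in KO and 5511 in WT. Markers of neutrophils (7 measured), B cells (4), T and NK cells (5) and erythroid cells (3) gave no call, with 2 neutrophil genes lower at an unadjusted p under 0.05. The part of these marker differences in the matrix gene differences was not tested.

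**Figure D4:**
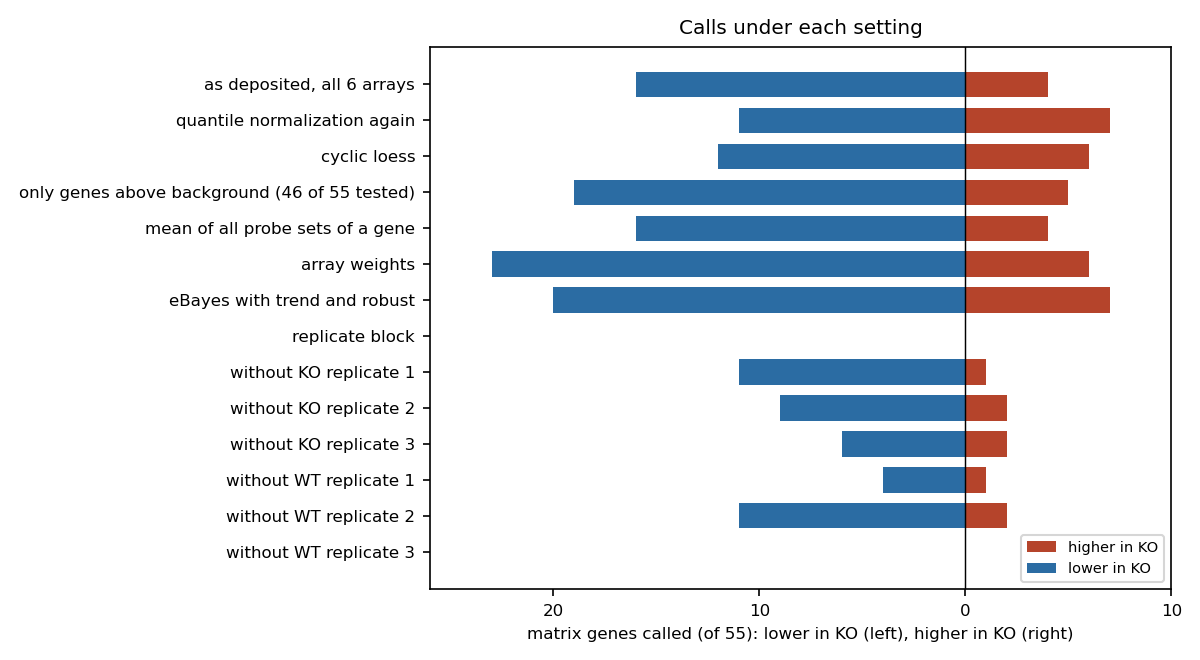
Number of the 55 matrix genes called under each setting, lower in KO to the left of 0 in blue and higher in KO to the right in red, with the values as deposited at the top and the fits without 1 array at the bottom. Calls number 16 lower and 4 higher as deposited, up to 23 lower and 6 higher with array weights, and 0 with a replicate block or without WT replicate 3.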

How the data were processed

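The 6 samples, 3 KO and 3 WT, were grouped by title. Each was hybridised from 6 µg total RNA to a 1-colour Affymetrix array, per the labels' protocols. The deposited values are log2 expression made by the authors. Per the submitters' processing notes RMA, Partek and Affymetrix Expression Console were used, in no stated order. Array medians lay between 7.19 and 7.23, so changes are relative to other genes. Of 35556 probe sets, 21789 had 1 gene symbol, 1621 several and 12146 none. For 21698 the symbol was brought up to date by gene identifier. Each gene was represented by its 1-symbol probe set with the highest mean over 6 arrays.

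KO was compared with WT by limma 3.58.1 (lmFit and eBayes, R 4.3.3), two-sided, without covariates or filter, with Benjamini-Hochberg adjustment over 19938 genes. On simulated data with 200 changed genes among 19938 for this comparison, 53% of differences of 0.3 and 87% of 0.6 were recovered. Most called matrix genes had differences under 0.3, a size that was not simulated. The simulated noise was independent between genes and took its spread from the KO arrays. The number of arrays limits the precision. All 3 values of a group were equal in 6 of the 55 genes. Ties between fewer values of a group occurred in further genes, among them the called genes Dcn, Fbln5, Lama5 and Serpinh1. All 58 genes could be named, and in each other list the 2 called genes with the smallest p per direction. Marker genes, and relatives of the 58 genes that were not called, were named beyond this. Members and lists were chosen with earlier results of these data known. The alternatives were quantile normalization again, cyclic loess, only genes above background, mean of probe sets, array weights, eBayes with trend and robust, a replicate block and each array left out.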

Additional observations from a re-analysis of the deposited data

How the results depend on the processing

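The calls over all genes, 1457 with 666 higher and 791 lower in KO, numbered 2192 with only genes above background, 3418 with array weights, 2275 with trend and robust, 52 with the replicate block and 189 to 932 without 1 array. The split turned to 862 higher against 639 lower with quantile normalization again and to 859 against 667 with cyclic loess. Matrix genes higher in KO numbered 7 with quantile normalization again and 7 with trend and robust, against 4. With array weights WT replicate 3 had a weight of 7.41 and the others 0.524 to 1.19. Under the replicate block 0 were higher and 0 lower (0.261% of all genes called), with 6 and 22 at an unadjusted p under 0.05 (7.40% and 8.69% of all genes) and adjusted p = 0.0610 to 0.203 for the 20 genes. Deviations of same-numbered KO and WT arrays from their group means correlated at -0.30, -0.26 and -0.02. These values gave no sign of pairing by number, but 3 arrays per group cannot exclude a shared batch. Without 1 array, 0 to 2 were higher and 0 to 11 lower; fewer arrays leave fewer degrees of freedom, and why WT replicate 3 mattered most was not tested.

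The median over the matrix genes, -0.077, was -0.041 with quantile normalization again, -0.046 with cyclic loess, -0.12 with only genes above background and -0.086 to -0.054 without 1 array. For basement membrane genes (-0.16) it was -0.14 with quantile normalization again, -0.19 above background, -0.18 with array weights and -0.21 to -0.15 without 1 array. For fibronectin and matricellular genes (-0.16) it was -0.13 with quantile normalization again, -0.12 with cyclic loess and -0.18 with array weights. For collagen processing (-0.055) it was -0.025 with quantile normalization again and -0.014 with cyclic loess, for elastic fibre genes (-0.013) -0.059 above background, and for small leucine-rich proteoglycans (-0.038) -0.067 to -0.033 without 1 array. Of the genes not called as deposited, Fmod, Ogn, Aspn, Vcan, Fbln2, Nid1, Nid2, Loxl1, P4ha2 and Plod1 passed under at least 1 alternative with all 6 arrays. No called matrix gene reversed under the 13 alternatives, of which only quantile normalization again and cyclic loess could have reversed one. Apart from the counts given, the cause of each change was not tested.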
